A study of Macaca mulatta with 60 samples.

Results

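Left ventricle (LV) was compared with right ventricle (RV) of the same control fetus in 6 rhesus macaque fetuses (Macaca mulatta), which gave 12 of the 60 arrays of the series. The 12 arrays were chosen by tissue and treatment alone, and each LV array was paired with the RV array that carries the same fetus number. Transcript levels were measured with custom NimbleGen arrays that list transcripts by Ensembl identifier. The values compared were percentile ranks within an array, on a scale up to 100 at the transcript with the strongest signal, and every LV minus RV difference is given in percentile points.

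The ventricles are the pumping chambers of the heart. In the adult the LV drives blood into the high pressure systemic circulation and the RV into the low pressure pulmonary circulation, whereas before birth both work in parallel, with most RV output passing through the ductus arteriosus to the body. The chambers also differ in origin, as the LV forms largely from the first heart field and much of the RV from the second. Contractile and ion channel proteins, fuel use, cell division, matrix and blood content can each differ between heart chambers or stages.

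Mothers of all 6 control fetuses received fruit that carried ethanol, the vehicle for bisphenol A (BPA), once daily. For fetuses 1, 2 and 3 the early gestation (EG) window ran from day 50 to day 100, and for fetuses 7, 8 and 9 the late gestation (LG) window ran from day 100 to term. EG hearts were collected by caesarian section and LG hearts after vaginal delivery, and every fetus was female. Fetuses 4, 5 and 6 (EG) and 10, 11 and 12 (LG) received 400 µg/kg BPA through the mother over the same windows, and they serve here as other animals on which a ventricular difference was measured again. Each group held 3 fetuses. Each sample was bulk ventricular tissue, so fewer cells of a type and less RNA per cell cannot be told apart.

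All LV arrays shared a slide and all RV arrays shared another, and the authors normalised each tissue on its own. Slide and tissue therefore cannot be told apart in any LV minus RV difference reported here. The ranks take out a shift or stretch of a whole array but not an offset of a single probe set between slides. Both windows and both treatments were present on each slide, so a constant slide offset drops out when the difference is compared between LG and EG. LV arrays also had a shared lowest value, held by 71 to 810 transcripts on an array against 1 transcript on each RV array. For this reason 18308 of 26149 transcripts were tested, those above the 25th percentile of mean level in both ventricles of the controls.

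The RV array of fetus 7 stood apart from the others. Its median correlation with the other RV arrays over the tested transcripts was 0.789, whereas that of the other 5 RV arrays lay between 0.889 and 0.934. Among LV arrays the lowest median correlation, 0.847, was that of fetus 2. LV and RV of the same fetus correlated at a median of 0.901 (0.767 to 0.921), and LV and RV of different fetuses at a median of 0.866. Where 1 fetus moved a mean difference of a named transcript strongly, the value without that fetus or the range with a single fetus left out stands beside it.

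The labelled tissue was checked against transcripts that mark atria. KCNA5, an atrial potassium channel subunit, ranked between 19.0 and 58.8 in LV and between 34.0 and 44.5 in RV, below its range in left atrium (LA, 62.0 to 76.1) and in right atrium (RA, 66.4 to 78.9). BMP10, a growth factor that marks the right atrium, ranked between 95.9 and 98.9 in RA and no higher than 29.4 in LV and 26.0 in RV. These 2 transcripts ranked lower in every ventricular array than in every RA array, and KCNA5 also lower than in every LA array. MYH6, which is also abundant in atria, did reach atrial ranks in some ventricles, as given further on. Markers such as MYL2, MYH7 and IRX4, which define ventricular muscle, were not analysed here, because transcripts could be named only where the study's tables describe them. Those tables describe 584 transcripts, of which 582 were in the data and 293 passed the filter on level. Apart from THRB, PDK4 and GYG1, which were taken up for their roles in thyroid hormone response and energy metabolism, they were selected by the study for a difference between BPA and control within a chamber, on arrays that include these controls, and their LV minus RV differences are not independent of that selection.

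A total of 888 transcripts (4.85% of 18308) differed between LV and RV in the controls, at a limma adjusted p of at most 0.05 and at least 10 percentile points. Of these, 427 (2.33%) were higher in LV and 461 (2.52%) were higher in RV. The LV-high transcripts differed by a median of 16.6 points (10.1 to 43.6), and the RV-high transcripts by a median of -13.1 points (-30.39 to -10.01). Over all tested transcripts the median difference was -0.46 points, and its median size was 3.70 points. The direction was the same in all 6 fetuses for 862 of the 888 (4.71% of all tested). Without the call, 4255 tested transcripts (23.2%) had the same sign in all 6 fetuses, 1401 (7.65%) with LV higher and 2854 (15.6%) with RV higher. At the adjusted p alone, with no threshold on size, 1444 passed (7.89%), 36.6% of them higher in LV. The count of 888 also depended on the filter. It was 1265 with no filter on level, 446 with a filter at the 50th percentile, and 90 with the study's interquartile range filter added.

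Larger called differences leaned to the LV. Among the 888 called of 18308 tested transcripts, 138 differed by at least 20 points, of which 118 were higher in LV and 20 in RV. A lean was also seen by level. Of 6262 transcripts with a mean rank of 75 or more, 101 were called (1.61%), 83 of them higher in LV and 18 higher in RV. Of 5524 transcripts below a mean rank of 50, 344 were called (6.23%), 126 higher in LV and 218 higher in RV. The number of calls depended on the fetuses used. It was 1241 (786 higher in LV and 455 in RV) without fetus 7, 182 without fetus 1, 373 without fetus 2, 144 without fetus 3, 161 without fetus 8 and 280 without fetus 9. Every call shared with that of all 6 fetuses kept its direction.

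**Figure D1:**
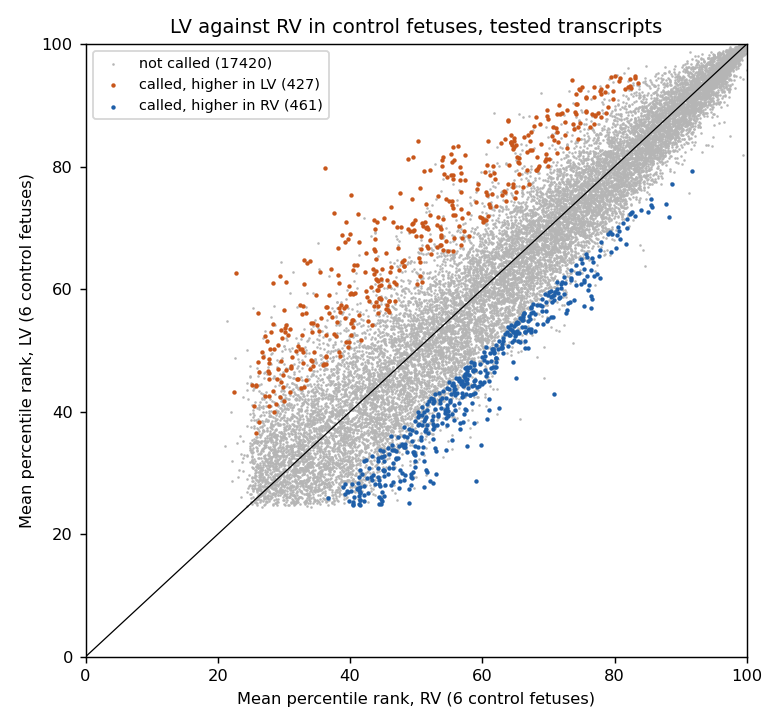
Mean percentile rank in RV (x axis) against LV (y axis) over 6 control fetuses, one point per tested transcript; orange points are the 427 called higher in LV, blue points the 461 called higher in RV, grey points were not called, and the line marks equal ranks. LV-high points lie farther from the line than RV-high points, and few called points lie above a mean rank of 75 in both ventricles.

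The same transcripts were then measured in the 6 BPA exposed fetuses, which had no part in the calls but whose arrays lay on the same slides. There 723 transcripts were called (3.95%), 391 (2.14%) higher in LV and 332 (1.81%) higher in RV. The control and BPA calls shared 325 transcripts, which is 36.6% of the control calls and 45.0% of the BPA calls, and all 325 had the same direction. Of the 427 LV-high transcripts, 373 (87.4%) were higher in LV in all 6 BPA exposed fetuses, against 11.3% of all tested transcripts. Of the 461 RV-high transcripts, 304 (65.9%) were higher in RV in all 6, against 13.7% of all tested. The median difference of the LV-high transcripts ran from 12.9 points (fetus 7) to 22.3 points (fetus 3) in the controls and from 9.32 to 22.3 points in the BPA exposed fetuses. For the RV-high transcripts the median ran from -17.2 points (fetus 7) to -9.95 points (fetus 1) in the controls and from -20.3 to -6.92 points in the BPA exposed fetuses. Every BPA exposed fetus showed both directions, as did every control fetus, from which the calls themselves were made. Since all of them were on the same slides, a slide offset cannot be told apart from a chamber difference here either.

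In the atria, which were hybridised on slides of their own after amplification of the cDNA, fewer transcripts were called. LA and RA of the same 6 control fetuses differed for 185 of 18837 tested transcripts (0.982%), 98 (0.52%) higher in LA and 87 (0.462%) higher in RA. Among 17260 transcripts tested in both pairs of chambers, 33 were called in both, which is 3.91% of the 843 ventricular calls and 20.2% of the 163 atrial calls, and 32 of the 33 had the left or the right side in common. The LV-high transcripts had a median LA minus RA difference of 5.17 points, and 83.6% were higher on average in LA, against 46.7% of all transcripts tested in both. The RV-high transcripts had a median LA minus RA difference of -1.34 points, and 32.4% were higher on average in LA. In biceps femoris muscle (BFM) of the same fetuses the LV-high transcripts had a median mean rank of 66.3, compared with 69.5 in LV, 50.2 in RV, 58.6 in LA and 52.7 in RA. The RV-high transcripts had a median of 49.8 in BFM, compared with 44.2 in LV, 57.5 in RV, 50.4 in LA and 52.1 in RA. LV and RV lay at opposite ends of the order of the 5 tissues for both sets, an order that the choice of these transcripts fixes in part.

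**Figure D2:**
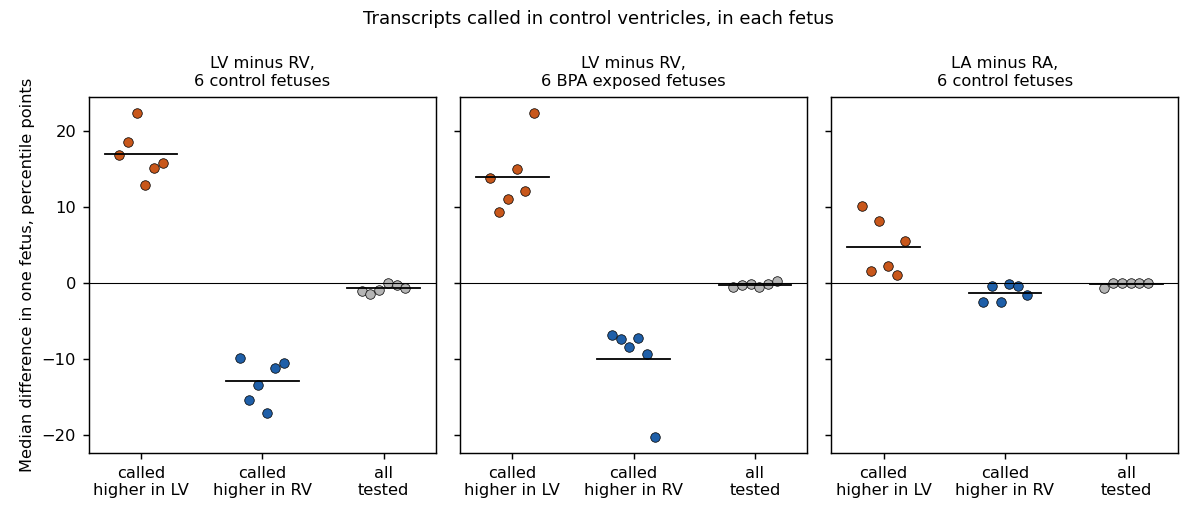
Median difference in percentile points (y axis) of the transcripts called in control ventricles, one point per fetus, for LV minus RV in controls, LV minus RV in BPA exposed fetuses and LA minus RA in controls; the bar is the mean of the 6 points. LV-high medians are above 0 and RV-high medians below 0 in all 6 fetuses of each panel, and the mean over the 6 fetuses is nearest to 0 in the atrial panel for both sets. The calls were made from the control fetuses of the LV minus RV panel, so the directions in that panel follow from the choice of transcripts.

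Of the 293 described transcripts tested, 14 were called (4.78%, beside 4.85% of all tested), 13 higher in LV and 1 higher in RV. The lean to LV has to be read with the origin of these transcripts, as 11 of the 14 were listed by the study for a difference between BPA and control in the RV of EG fetuses, on arrays that include the RV of fetuses 1, 2 and 3. All 14 had the same mean direction in the BPA exposed fetuses, where 6 of them were called.

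RPL9, a protein of the large ribosomal subunit, was the called transcript with a protein name that was higher in LV. The study listed it for a difference between BPA and control in the RV of EG fetuses, on arrays that include the RV of fetuses 1, 2 and 3. Its ventricular difference is therefore not independent of that choice. RPL9 ranked between 81.0 and 91.3 in LV (median 90.1) and between 72.1 and 87.0 in RV (median 77.3). LV exceeded RV in every fetus, by 16.3, 8.91 and 14.5 points in fetuses 1, 2 and 3 and by 2.47, 7.38 and 11.1 points in fetuses 7, 8 and 9. The mean difference was 10.1 ± 5.02 points (SD, n = 6, limma adjusted p = 0.0354, exact sign-flip p = 0.03125, the smallest that 6 pairs allow). It was 7.15 ± 3.33 points in the BPA exposed fetuses, again with LV higher in all 6 (limma adjusted p = 0.0368). The adjusted p passed 0.05 without fetus 7 alone and missed it when any other single fetus was left out, with a highest value of 0.108.

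C2orf70, a protein of unassigned function in the array annotation, was higher in RV. Its rank lay between 26.8 and 48.0 in LV (median 37.7) and between 47.3 and 76.3 in RV (median 55.8). RV exceeded LV in each fetus, and LV minus RV lay between -30.5 points (fetus 7) and -9.14 points (fetus 9). The mean difference was -18.8 ± 7.81 points (SD, n = 6, limma adjusted p = 0.0219, exact sign-flip p = 0.03125), and it missed the threshold without fetus 1, 2, 3 or 8 (highest limma adjusted p = 0.0730). The transcript was listed by the study from the atria only, and so its ventricular difference was not part of that choice. In the BPA exposed fetuses RV was again higher in all 6, with a mean of -13.4 ± 10.6 points that missed the threshold there (limma adjusted p = 0.0903), and LA and RA differed by 3.11 ± 8.73 points.

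The other 12 called transcripts carry no individual name. Of these, 10 were proteins described only as newly predicted, and they differed by 13.5 to 32.7 points (limma adjusted p between 0.00565 and 0.0457), all with higher LV ranks in all 6 controls and in all 6 BPA exposed fetuses. The study listed 9 of these 10 for a difference between BPA and control in the RV of EG fetuses. A U5 spliceosomal RNA (ENSMMUT00000033879), a component of the splicing machinery, ranked between 45.4 and 78.6 in LV and between 8.26 and 44.4 in RV without overlap. Its RV rank was below 25 in 2 EG and 2 LG fetuses, and in fetus 7 the ventricles differed by 2.83 points. Its mean difference was 39.8 ± 21.8 points (SD, n = 6, limma adjusted p = 0.0353), against 17.4 ± 17.6 points in the BPA exposed fetuses, where 1 fetus differed by -10.3 points and the limma adjusted p was 0.144. The study listed this RNA for a difference between BPA and control in the LV of EG fetuses, on arrays that include the LV of fetuses 1, 2 and 3. A Y RNA (ENSMMUT00000034864), a small RNA of the Ro ribonucleoprotein, ranked between 74.4 and 88.4 in LV and between 19.97 and 67.2 in RV. Its mean difference was 33.8 ± 20.3 points (SD, n = 6, limma adjusted p = 0.0434), and in the BPA exposed fetuses it was 20.1 ± 12.6 points (limma adjusted p = 0.0534). The study listed this Y RNA for a difference between BPA and control in the RV of EG fetuses, on arrays that include the RV of fetuses 1, 2 and 3. The U5 RNA and the Y RNA were both named after their values were seen, and both missed the threshold on leaving out any single fetus except fetus 7.

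Transcripts with no description in the sources used here included the largest difference in each direction. ENSMMUT00000049757 ranked between 71.0 and 83.8 in LV and between 1.61 and 62.2 in RV, a mean difference of 43.6 ± 20.8 points (limma adjusted p = 0.0261). ENSMMUT00000049513 ranked between 67.5 and 79.4 in LV and between 7.45 and 58.1 in RV, a mean difference of 35.2 ± 15.7 points (limma adjusted p = 0.0229). Neither overlapped between the ventricles, and both were higher in LV in all 6 BPA exposed fetuses. On the other side, ENSMMUT00000011819 ranked between 39.3 and 48.7 in LV and between 60.2 and 82.5 in RV, a mean difference of -27.8 ± 8.79 points (limma adjusted p = 0.0133), and -31.0 ± 4.97 points in the BPA exposed fetuses. ENSMMUT00000049742 had a mean difference of -30.4 ± 18.3 points (limma adjusted p = 0.0439), in which the LV rank of fetus 9, 1.55, was the lowest value of that array. Without fetus 9 its mean difference was -24.9 points, and it missed the threshold when any single fetus was left out. In the BPA exposed fetuses it was -19.5 points, with 1 of 6 at 7.39 points and a limma adjusted p of 0.0864. With a single fetus left out, the highest limma adjusted p of these 4 transcripts was 0.0832, 0.0787, 0.0541 and 0.113 in the order given.

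Described transcripts were then followed in 8 groups with 45 tested members, none of which was called, beside 4.85% of all tested transcripts.

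Contractile proteins, ion channels, receptors and a cardiac growth factor formed a group of 8 transcripts, of which 7 were tested. Their median difference was -3.43 points, with 3 higher and 4 lower on average in LV, beside -0.46 points over all tested transcripts. MYH6 encodes the fast alpha myosin heavy chain, which the atria use throughout and the ventricles use to an extent that varies with age and thyroid state. It ranked 51.2, 47.9 and 48.4 in the LV of fetuses 1, 2 and 3, and 99.9 in the LV of each of fetuses 7, 8 and 9. In RV it ranked 41.5, 55.5 and 97.9 in fetuses 1, 2 and 3 and 52.2, 99.9 and 99.9 in fetuses 7, 8 and 9. The ventricles were thus within 10 points of each other in 4 fetuses, with LV minus RV of 9.61 and -7.57 points in fetuses 1 and 2, and far apart in fetus 3, where LV minus RV was -49.5 points, and in fetus 7, where it was 47.6 points. In RV, fetus 3 thus lay near the LG fetuses 8 and 9 for MYH6, and fetus 7 near the EG fetuses 1 and 2. This was not so for CDC25C or ADAM12, given further on, whose RV ranks in fetuses 3 and 7 lay with those of their own window. On the deposited log2 scale MYH6 was 6.48 in LV and 11.91 in RV of fetus 3, and 14.16 in LV and 6.47 in RV of fetus 7. Since these opposed, the mean difference was 0.01 ± 31.2 points (SD, n = 6, limma adjusted p = 1.00), -9.51 points without fetus 7 and 9.92 points without fetus 3. In the BPA exposed fetuses RV was higher in all 6, with differences from -59.6 to -0.237 points (mean -31.0 ± 23.7 points, limma adjusted p = 0.0808). The study reports lower MYH6 with BPA than in controls in the LV of LG fetuses. For MYH6 the BPA exposed fetuses are therefore not a repeat of the control comparison free of treatment. In LA and RA of the controls MYH6 ranked between 99.8 and 99.9.

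THRB encodes thyroid hormone receptor beta, a ligand-dependent regulator of myosin genes. It ranked between 53.3 and 65.2 in LV (median 59.96) and between 61.7 and 74.0 in RV (median 66.6). RV was higher in 5 of 6 fetuses, with differences from -10.8 to -6.82 points, and LV was higher by 2.95 points in fetus 2. The mean difference was -7.14 ± 5.14 points (SD, n = 6) and missed the threshold (limma adjusted p = 0.0793, exact sign-flip p = 0.0625). The direction was split 3 to 3 in the BPA exposed fetuses. KCNN2, a calcium-activated potassium channel subunit, had a mean difference of 4.61 ± 11.9 points (1.54 to 7.83 points with a single fetus left out), MYH11, the smooth muscle myosin heavy chain, of -4.30 ± 11.6 points (-7.27 points without fetus 7 and -1.12 points without fetus 3), and GPR20, an orphan receptor, of -4.54 ± 6.81 points (-2.93 points without fetus 2). None of the 3 had the same sign in all 6 fetuses. KCNN2 ranked below 25 in the RV of all 3 LG fetuses (log2 4.20 to 4.38). On log2 values centred on each array's median its mean difference turned to -0.37 (limma adjusted p = 0.352).

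**Figure D3:**
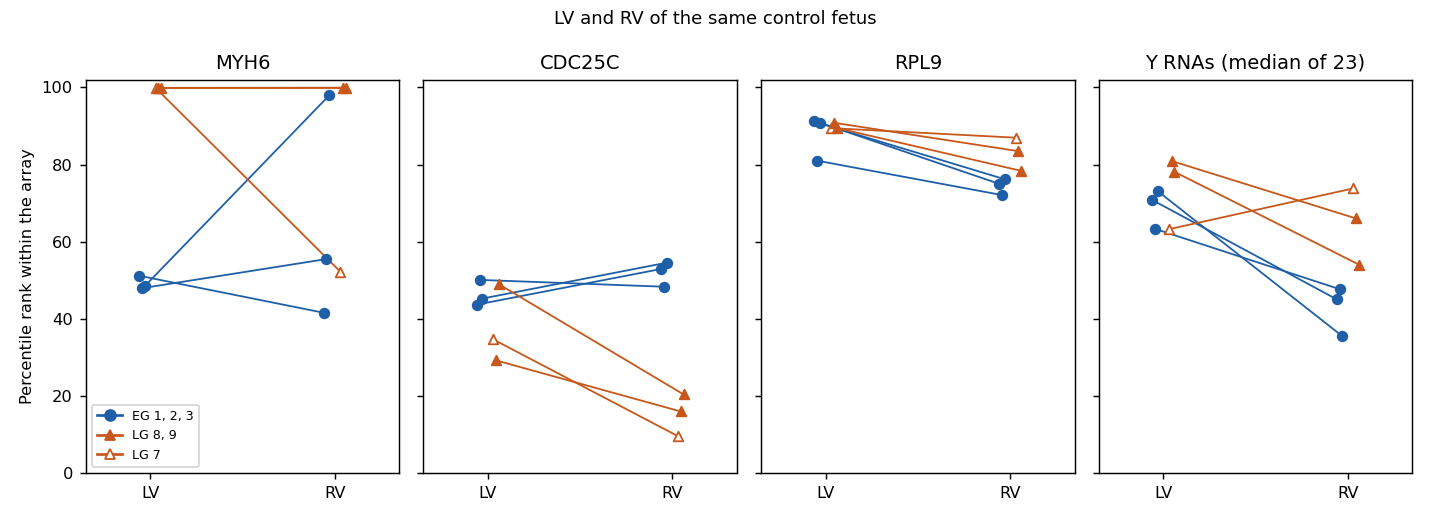
Percentile rank within the array (y axis) of MYH6, CDC25C, RPL9 and the median of 23 tested Y RNAs in LV and RV, with a line per control fetus (blue circles EG, orange triangles LG, open triangle fetus 7). MYH6 lines are flat at 99.9 in fetuses 8 and 9 and cross between fetuses 3 and 7, CDC25C is lower in RV in the 3 LG fetuses, RPL9 is lower in RV in all 6, and the Y RNA median is lower in RV in all but fetus 7.

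Energy metabolism was represented by 6 transcripts on the array, all tested, with a median difference of 3.69 points, 4 higher and 2 lower on average in LV. SLC25A33, a mitochondrial pyrimidine nucleotide carrier, ranked between 59.0 and 73.0 in LV and between 33.5 and 68.5 in RV, and LV was higher in 5 of 6 fetuses. Its mean difference of 9.92 ± 13.7 points (limma adjusted p = 0.240) was 5.03 points without fetus 7. NR4A1, an immediate-early nuclear receptor that responds to metabolic and stress signals, was higher in RV in 5 of 6 fetuses, with a mean difference of -9.72 ± 9.18 points (limma adjusted p = 0.122). HK2, the insulin-responsive hexokinase, had a mean difference of -8.01 ± 12.5 points, and -4.33 points without fetus 7. GYG1, the primer protein of glycogen synthesis, stayed between 83.7 and 86.0 in LV and ranged from 63.1 (fetus 7) to 86.2 in RV, a mean difference of 5.11 ± 8.40 points that was 2.02 points without fetus 7. PDK4, which restrains pyruvate entry into mitochondria, differed between the ventricles of a fetus by -8.26 to 9.72 points, while its rank within a ventricle ranged from 37.1 (LV of fetus 2) to 95.7 (both ventricles of fetus 8).

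Of 12 matrix and fibroblast transcripts 6 were tested, with a median difference of 0.60 points. LECT1 encodes chondromodulin-1, an inhibitor of vessel growth found in cartilage and cardiac valves. It ranked between 17.2 and 36.4 in LV (median 26.9) and between 35.97 and 41.2 in RV (median 37.6). RV was higher in all 6 fetuses, with differences of -12.6, -18.8 and -17.1 points in fetuses 1, 2 and 3 and of -8.65, -4.81 and -0.987 points in fetuses 7, 8 and 9. The mean difference of -10.5 ± 6.97 points (SD, n = 6, exact sign-flip p = 0.03125) missed the threshold over all transcripts (limma adjusted p = 0.0604). The outcome depended on the fit, as LECT1 passed without the pairing by fetus (limma adjusted p = 0.0116). It also passed on centred log2 values (-1.07, limma adjusted p = 0.0299), and its LV rank was below 25 in 2 EG fetuses. RV was also higher in all 6 BPA exposed fetuses (-17.9 ± 10.9 points, limma adjusted p = 0.0508), and RA was above LA (LA minus RA -9.38 ± 5.88 points).

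EFEMP1, the matrix protein fibulin-3, had the largest mean difference in size among tested members of the 8 groups, 13.5 ± 27.1 points (limma adjusted p = 0.404), and it rested on fetus 7. There it ranked 94.6 in LV and 27.0 in RV, a difference of 67.6 points, whereas the other 5 fetuses lay between -5.04 and 11.3 points. Without fetus 7 the mean difference was 2.69 points. PDGFC, a growth factor for fibroblasts, was higher in LV in 5 of 6 controls (8.43 ± 9.86 points, limma adjusted p = 0.185, and 5.58 to 10.7 points with a single fetus left out) and in all 6 BPA exposed fetuses (7.93 ± 5.53 points, limma adjusted p = 0.0740). ADAM12, a membrane metalloprotease, differed by -1.36 ± 5.57 points (-3.24 to -0.42 points with a single fetus left out), and in both ventricles its 3 EG ranks (56.3 to 61.5 in LV and 58.7 to 66.3 in RV) were above its 3 LG ranks (34.3 to 42.9 in LV and 32.2 to 45.8 in RV).

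All 4 transcripts of cell division were tested, with a median difference of 4.12 points. CDC25C, the phosphatase that activates the mitotic kinase CDK1, ranked 43.7, 50.1 and 45.2 in LV and 52.9, 48.3 and 54.5 in RV of fetuses 1, 2 and 3. In fetuses 7, 8 and 9 it ranked 34.6, 29.2 and 48.9 in LV and 9.53, 15.9 and 20.4 in RV. The ventricles differed little in EG (-5.60 ± 6.39 points, n = 3), and in LG the LV rank was the higher in all 3 fetuses (22.3 ± 8.03 points, n = 3). These 3 RV values were low, at log2 4.24 to 4.53 where the 25th percentile of RV values was 4.72, so CDC25C passed the filter on level in RV through the EG fetuses. On log2 values centred on each array's median its mean difference over all 6 was 0.12 (limma adjusted p = 0.833). TTK, a kinase of the spindle checkpoint, was higher in LV in 5 of 6 fetuses, with a mean difference of 9.82 ± 8.56 points (limma adjusted p = 0.104) and of 14.6 ± 6.64 points in the 3 LG fetuses. Its RV values in LG were also low (log2 4.10 to 4.62), and on centred log2 values the mean difference was 0.10 (limma adjusted p = 0.798). CENPE, a kinetochore motor, was lower in LV in all 3 EG fetuses (-5.25 ± 1.27 points) and had a difference of 2.32 ± 4.09 points in LG. CIT, citron kinase of cytokinesis, differed by -0.11 ± 7.72 points. With a single fetus left out the mean difference ran from 4.30 to 11.9 points for CDC25C (8.35 points over all 6), from -3.12 to -0.44 points for CENPE (-1.46 points over all 6) and from -1.86 to 2.14 points for CIT. CDC25C was lower in LV in all 6 BPA exposed fetuses (-2.45 ± 2.20 points), where TTK differed by 0.14 ± 6.89 points.

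Blood and immune cell transcripts were followed because the chambers can hold different amounts of blood. ALAS2, the erythroid enzyme that starts haem synthesis, ranked between 63.0 and 77.2 in LV and between 68.3 and 81.1 in RV, with RV higher in 5 of 6 fetuses (-4.46 ± 7.65 points, limma adjusted p = 0.352, and -7.14 to -2.83 points with a single fetus left out). KLF1, an erythroid transcription factor, differed by -0.26 ± 10.3 points (-2.33 to 2.72 points with a single fetus left out). Of 17 immune cell transcripts 11 were tested, with a median difference of -0.94 points, 5 higher and 6 lower on average in LV. CD52, a surface glycoprotein of lymphocytes, had a difference of -7.57 ± 8.68 points (limma adjusted p = 0.181) and was lower in LV in 4 of 6 fetuses. The signalling adaptor LCP2 differed by -3.66 ± 4.76 points (-2.21 points without fetus 8), the platelet regulator RGS18 by 3.19 ± 12.7 points (1.04 points without fetus 3 and 7.93 points without fetus 9) and the cytokine receptor subunit CSF2RB by -2.25 ± 5.18 points (-4.33 points without fetus 9). On centred log2 values RGS18 turned to -0.31 (limma adjusted p = 0.471), and its RV rank was below 25 in 1 EG and 2 LG fetuses. The mean rank over all 17 immune transcripts ran from 28.3 to 39.0 in LV and from 31.4 to 37.8 in RV, and over ALAS2 and KLF1 from 51.1 to 60.3 in LV and from 52.8 to 64.1 in RV. Their part in the other ventricular differences was not tested.

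Of 15 neuronal and neuroendocrine transcripts 7 were tested, with a median difference of -0.63 points. TUBB3, the neuronal beta tubulin, ranked between 49.3 and 62.4 in LV (median 57.5) and between 41.9 and 55.4 in RV (median 49.0). LV was higher in all 6 controls, by 1.78 to 16.1 points, with a mean of 8.38 ± 5.05 points (SD, n = 6, exact sign-flip p = 0.03125, limma adjusted p = 0.0543). In the BPA exposed fetuses its direction was split 3 to 3, with a mean of 0.74 ± 11.0 points. The study listed TUBB3 for a difference between BPA and control in the RV of EG fetuses, on arrays that include the EG controls used here. Neither its control difference nor the contrast with the BPA exposed fetuses is independent of that choice. CTNND2, the neural delta-catenin, ranked between 17.9 and 48.4 in LV and between 42.1 and 53.4 in RV, and RV was higher in 5 of 6 controls and in all 6 BPA exposed fetuses. Its mean difference of -11.5 ± 9.07 points (limma adjusted p = 0.0839) became -14.4 points without fetus 7, the fetus with the opposite sign, and then passed the threshold (limma adjusted p = 0.0294). The transcription factor PAX6 differed by 6.05 ± 9.64 points (3.63 to 8.43 points with a single fetus left out, and 0.04 on centred log2 values, limma adjusted p = 0.943) and the calcium-binding copine CPNE6 by -4.74 ± 8.15 points (-7.52 to -3.02 points with a single fetus left out). Among 12 transcripts of other tissues 2 were tested, the mucin MUC5B (-7.21 ± 11.0 points, and -11.5 points without fetus 1) and the olfactory receptor OR2T6 (1.46 ± 10.5 points, and -1.75 to 4.19 points with a single fetus left out).

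**Figure D4:**
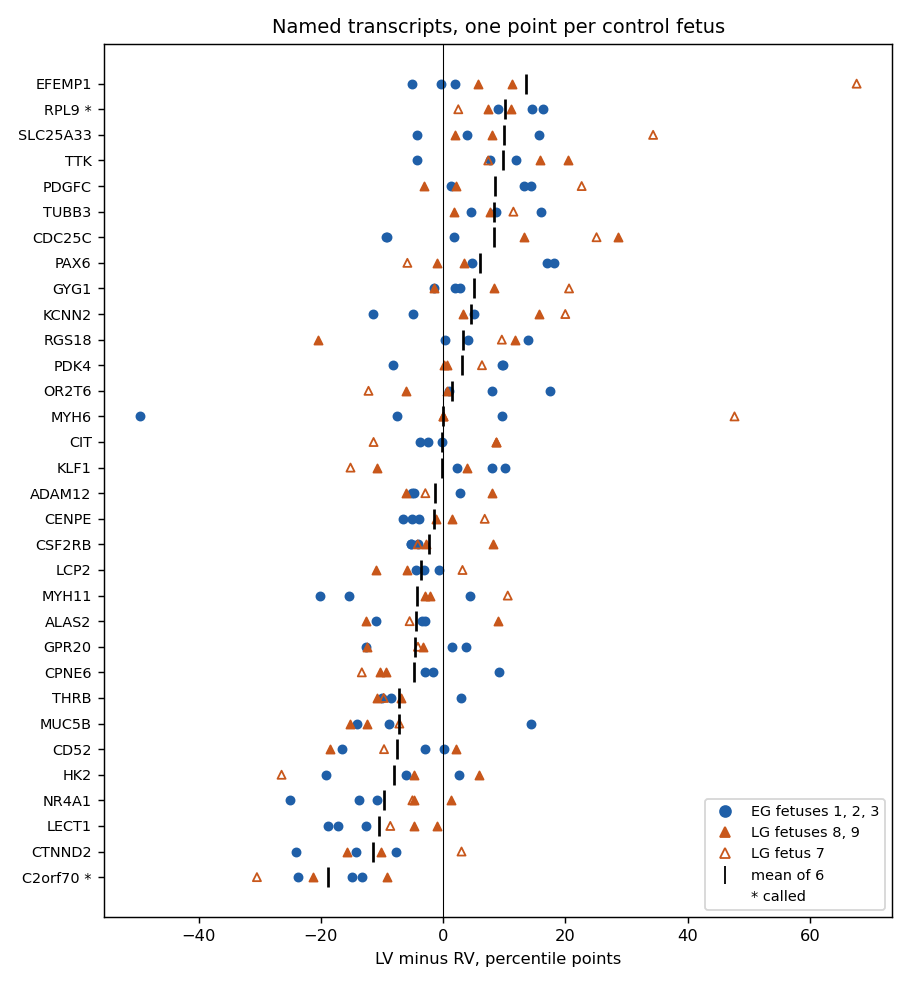
LV minus RV in percentile points (x axis) of named transcripts (y axis), with 1 point per control fetus (blue circles EG, orange triangles LG, open triangle fetus 7) and a bar at the mean of 6; an asterisk marks the 2 called transcripts, RPL9 and C2orf70. Points lie on a single side of 0 for RPL9, C2orf70, TUBB3 and LECT1, and fetus 7 lies far from the rest for EFEMP1.

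Small RNAs are covered by fewer probes each than coding transcripts on this array. Of 45 described Y RNAs 23 were tested and 1 was called (4.35%, beside 4.85% of all tested). Their median difference was 14.4 points, and 19 (82.6%, beside 45.6% of all tested) were higher on average in LV and 4 in RV. The median rank of the 23 was 70.8, 63.3 and 73.1 in LV of fetuses 1, 2 and 3 against 45.0, 47.7 and 35.5 in RV. In fetuses 7, 8 and 9 it was 63.2, 80.9 and 78.1 in LV against 73.8, 66.0 and 54.0 in RV. LV was the higher in 5 of 6 fetuses, with fetus 7 the exception. By origin of the transcripts, the 18 that the study listed for RV had a median difference of 16.6 points and the 4 listed for atria only had one of 4.67 points. In the BPA exposed fetuses 22 of the 23 were higher on average in LV, with a median of 12.5 points, and there the order by origin was the other way, 12.0 points for the 18 listed for RV and 16.5 points for the 4 listed for atria only.

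U6 spliceosomal RNAs, which form the catalytic centre of the spliceosome, showed a smaller lean. Of 44 tested none was called (4.85% of all tested were), 31 (70.5%, beside 45.6% of all tested) were higher and 13 lower on average in LV, and the median difference was 2.56 points. The 10 tested 7SK RNAs, which hold an elongation factor in check, had a median of 7.27 points. The 10 tested signal recognition particle RNAs had a median of -1.79 points, the 22 tested microRNAs of -1.24 points, and the 23 tested small nucleolar RNAs of -0.65 points. The 42 tested proteins without a name had a median of 7.91 points, and 10 were called (23.8%, beside 4.85% of all tested). Among them, the 24 listed for RV had a median of 12.1 points with 9 called, the 11 listed for atria only 1.88 points with 1 called, and the 7 listed for LV -1.58 points with none called. The 100 tested proteins with a name had a median of -0.98 points, with 44 higher and 56 lower on average in LV. MicroRNAs mml-mir-205 and mml-mir-224 were below the filter and were not tested across all transcripts. The first ranked between 1.55 and 14.4 in LV and between 2.77 and 28.5 in RV, higher in RV in all 6 fetuses with differences from -14.1 to -1.23 points. Its LV values were near the shared lowest value of the LV arrays, and at it in fetus 9, so these differences are descriptions only. The second was at the shared lowest value of the LV arrays of fetuses 7, 8 and 9, so no difference is given for it.

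Whether the LV minus RV difference changed between the windows was tested in the same controls, a contrast in which a constant slide offset cancels. No transcript was called (0 of 18308, 0%; limma), while 1404 (7.67%) had an unadjusted p of at most 0.05. At an unadjusted p of at most 0.01 and at least 10 points there were 228 (1.25%), of which 95 had the more positive difference in LG and 133 in EG. In 3129 (17.1%) the 3 LG and 3 EG differences did not overlap. The lowest adjusted p was shared by all transcripts named next (limma adjusted p = 0.649), so the values that follow are descriptions.

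CDC25C had an LG minus EG value of 27.9 points, which rests on RV ranks below 25 in all 3 LG fetuses and is given as a description. Several of the transcripts that follow also ranked below 25 in some arrays. MCTP2, a membrane protein with C2 domains, differed by -7.98 to -7.39 points in the 3 EG fetuses and by 5.04 to 19.4 points in the 3 LG fetuses. It ranked below 25 in the LV of 2 EG fetuses and 1 LG fetus, and in the RV of 2 LG fetuses. Its mean difference over all 6 was 3.17 points and turned to -0.31 on centred log2 values. A small nucleolar RNA of the SNORD113/SNORD114 family differed by -27.4, -55.8 and -37.7 points in fetuses 1, 2 and 3, and by -2.12, 6.39 and -5.33 points in fetuses 7, 8 and 9. In the other direction, C16orf11 differed by 18.1 ± 15.6 points in EG and by -21.1 ± 6.31 points in LG. SLURP1, a secreted Ly-6 family protein, differed by 8.68 ± 5.95 points in EG and -13.7 ± 7.21 points in LG. A Y RNA (ENSMMUT00000034391) differed by 19.7 ± 8.24 points in EG and -14.7 ± 3.45 points in LG, and a signal recognition particle RNA (ENSMMUT00000050093) by 10.1 ± 6.23 and -13.8 ± 5.11 points. The study listed this last RNA, the small nucleolar RNA, C16orf11 and SLURP1 for a difference between BPA and control in the LV of EG fetuses. The arrays used there include the LV of fetuses 1, 2 and 3, so the EG values of these transcripts are not independent of that choice.

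By class, the Y RNAs had a median LG minus EG value of -21.4 points, with 21 of 23 negative, the U6 RNAs one of -14.0 points, with 39 of 44 negative, and the proteins without a name one of -9.04 points, with 33 of 42 negative. Over all tested transcripts the median was 1.22 points, with 7272 of 18308 negative. By origin, the 18 Y RNAs listed for RV had a median of -22.8 points, all negative, the 4 listed for atria only had one of 4.37 points, 2 of them negative, and the 1 listed for LV had -33.3 points. The proteins without a name had -13.0 points for the 24 listed for RV, -1.29 points for the 11 listed for atria only and -7.67 points for the 7 listed for LV. The U6 RNAs had -13.8 points for the 25 listed for RV, -9.46 points for the 14 listed for atria only and -42.9 points for the 5 listed for LV, all 5 negative. In the BPA exposed fetuses the same classes had medians of 6.88, 8.31 and 5.73 points, the opposite sign, beside 0.50 points over all tested transcripts. Y RNAs, U6 RNAs and proteins without a name listed for RV had 6.09, 9.82 and 6.70 points there. Those listed for atria only had 6.61, 0.85 and 5.22 points, and those listed for LV 18.6, 13.5 and 3.48 points. The listing rests on a difference between BPA and control, so the opposite sign is not independent of it. The RV array of fetus 7 was 1 of the 3 LG arrays behind the control values, and there LV minus RV of the median rank was -10.6 points for the Y RNAs and -15.6 points for the U6 RNAs. For the Y RNAs the same value was 14.9 and 24.1 points in fetuses 8 and 9 and 25.8, 15.6 and 37.6 points in fetuses 1, 2 and 3, so without fetus 7 the windows overlapped. For the U6 RNAs it was 1.53 and 1.03 points in fetuses 8 and 9 and 9.57, 12.0 and 11.1 points in fetuses 1, 2 and 3, and the windows did not overlap with or without fetus 7.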

How the data were processed

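Transcript levels of 12 control arrays (6 LV, 6 RV) were analysed, with 12 arrays of BPA exposed fetuses and 12 control LA and RA and 6 control BFM arrays for comparison. The log2 values were deposited by the authors, who hybridised Cy5-labelled cDNA to NimbleGen 12-plex arrays and applied robust multi-array averaging (RMA: background correction, quantile normalization and summary per transcript) within each tissue. Atrial cDNA was amplified and ventricular cDNA was not; for BFM this is not given in the sources used here.

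Here each value was converted to its percentile rank within the array, over 26149 transcripts with ties averaged. Transcripts above the 25th percentile of mean control level in both tissues were fitted with limma 3.58.1 in R 4.3.3 (lmFit, eBayes) with fetus as a block. A call required a Benjamini-Hochberg adjusted p of at most 0.05 and 10 percentile points. Single transcripts had an exact two-sided sign-flip test over 6 pairs, with 0.03125 as the smallest p. The script was tested on simulated data. Figures used matplotlib 3.10.9.

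The pairing comes from the animal, as equal fetus numbers mark the same fetus. Deviations from the group means correlated at 0.004 to 0.197 within a fetus (median 0.131, 3 of 6 over 0.1) and at a median of -0.08 between fetuses. The members and lists were chosen with earlier results of these data known. The rule names the genes the study names, up to 4 of the largest differences per list, called transcripts with a name and the same sign in all 6 fetuses, 2 unnamed transcripts in each direction, and 4 in each direction for LG minus EG. None of the 26149 identifiers was paired with a symbol in the gene tables used here (0 matched), so names come from the study's tables. Scanner intensities were not used here. Precision is limited by how few arrays each group holds.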

Additional observations from a re-analysis of the deposited data

Results flagged for a closer look

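Among 45 transcripts named here and the array correlations, 5 values stood far from the other 5 fetuses by Dixon's test, where chance marks about 1 in 20 groups. EFEMP1 had an LV minus RV difference of 67.6 points in fetus 7, against -5.04 to 11.3 points in the others. THRB had 2.95 points in fetus 2, against -10.8 to -6.82 points. CSF2RB had 8.18 points in fetus 9, against -5.33 to -2.88 points. MUC5B had 14.3 points in fetus 1, against -15.2 to -7.17 points. The RV array of fetus 7 had a median correlation with its tissue of 0.789, against 0.889 to 0.934.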

How the results depend on the processing

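The 888 ventricular calls became 446 with a filter at the 50th percentile of level, 90 when the study's filter on a log2 interquartile range of 0.5 was added, 1466 with all 24 LV and RV arrays fitted together, 1444 (36.6% higher in LV) with no threshold on size and 138 (85.5% higher in LV) at 20 points. Leaving out each fetus gave 144 to 1241 calls, and leaving out fetuses 2 and 7, an alternative chosen after the data were seen, gave 687 (68.0% higher in LV). The fit without the pairing by fetus gave 1125 calls (610 higher in LV), of which 733 were shared with the paired fit. No filter (1265), quantile normalized log2 values (1063), log2 values centred on each array's median (1241), logit ranks (1231), a robust trended prior (996) and an unadjusted p of at most 0.01 (1267) stayed within 1.5 times of 888. In each alternative the shared calls kept their direction. For LG minus EG the count stayed at 0 in all alternatives other than an unadjusted p of at most 0.01, which gave 228. Of 680 values of 45 single transcripts 608 kept direction and side of the threshold, 41 no longer passed, 6 passed newly and 25, of 11 transcripts, changed sign, none of a called transcript. On the centred log2 scale, where transcripts below a mean rank of 50 were shifted by a median of -0.35, KCNN2 turned to -0.37, RGS18 to -0.31, OR2T6 to -0.23, MCTP2 to -0.31 and the Y RNA ENSMMUT00000034391 to -0.31. Without fetuses 2 and 7 MYH6 turned to -9.999, CIT to 3.31 and KLF1 to 0.88 points. With a single fetus left out 17 values of 9 transcripts changed sign, and their means ran from -9.51 to 9.92 points for MYH6, -1.86 to 2.14 for CIT, -2.33 to 2.72 for KLF1, -1.75 to 4.19 for OR2T6, -0.0704 to 5.40 for MCTP2, -8.47 to 3.18 for C16orf11, -5.76 to 1.30 for SLURP1, -2.12 to 6.68 for the same Y RNA and -5.54 to 1.34 for the signal recognition particle RNA ENSMMUT00000050093. The cause of these changes was not tested.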
